A study of Homo sapiens with 3 samples.

Results

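Chromosome 19 carried 732 of the 14131 p68 sites and 122 of the 7899 SRA sites mapped in NTERA2 cells, and the sites of its first 20 Mb in hg19 are described here beside those of the rest of the chromosome. A site belonged to a side by its midpoint. The position of the split was chosen by the numbers of sites on the 2 sides, so that the difference in number between the sides is a description and was not tested. Before the split lay 591 p68 sites (80.7% of those on the chromosome) and 114 SRA sites (93.4%). After it lay 141 p68 sites and 8 SRA sites. The split falls within the short arm, so the first side is short arm throughout, while the other holds the remainder of the short arm, the centromere and the long arm.

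NTERA2, the 1 cell line used, derives from a human embryonal carcinoma and resembles pluripotent stem cells, and for both assays it was grown in DMEM with serum. In the SRA ChIRP-seq, chromatin was fixed with glutaraldehyde and recovered with biotinylated oligonucleotide probes complementary to SRA. Sites also found with LacZ control probes were subtracted by the authors, a step that the study's methods give for SRA only. In the p68 ChIP-seq, chromatin was fixed with formaldehyde and recovered with an antibody against p68. Each assay had 3 biological replicates that the authors intersected into 1 list of positions without scores, so read depth and the spread between replicates are unknown, and all intervals below are 95% intervals that cover counting error only. The single lists also allow no test between sides or chromosomes, since neighbouring sites are not replicates. The input sample was not analysed here, and the study's methods do not say whether it served as a control in peak calling.

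SRA (steroid receptor RNA activator) is a long non-coding RNA that acts as a coregulator of transcription factors, among them nuclear receptors. The protein p68, encoded by DDX5, is a DEAD box RNA helicase that takes part in RNA processing and in transcription, and it binds SRA. Chromosome 19 is known as a gene-dense, GC-rich chromosome, and it holds large clusters of genes for zinc finger transcription factors. Genes at the positions below are not named, because an hg19 annotation was not used here.

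The SRA sites described below were recovered by a pool of 29 probes of 20 nt each. The first and the last of them are shown to illustrate what hybridised to the RNA, written 5′ to 3′.
SRA_1: ggctgatgtcatcacatacc
SRA_29: tgaggcagcagtttgtttgg
The probes address the RNA and not the sites themselves, and the sequence of the sites in hg19 was not used here.

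p68 sites were found in every 1 Mb of the first 20 Mb of chromosome 19. Their density there was 29.6 sites per Mb (exact Poisson interval 27.2 to 32.0), against 3.62 per Mb (3.05 to 4.27) from the split to the last site at 58.9 Mb, a ratio of 8.15. The 20 windows of 1 Mb before the split held from 17 to 43 p68 sites each, with a median of 27. After the split the 39 windows held from 0 to 12, with a median of 4, and 7 of them were empty. No window after the split therefore reached the lowest one before it. In windows of 500 kb this separation was lost, with a lowest value of 6 sites per Mb before the split and a highest of 14 after it. Together the p68 sites covered 3.63% of the bases before the split and 0.402% of those after it.

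**Figure D1:**
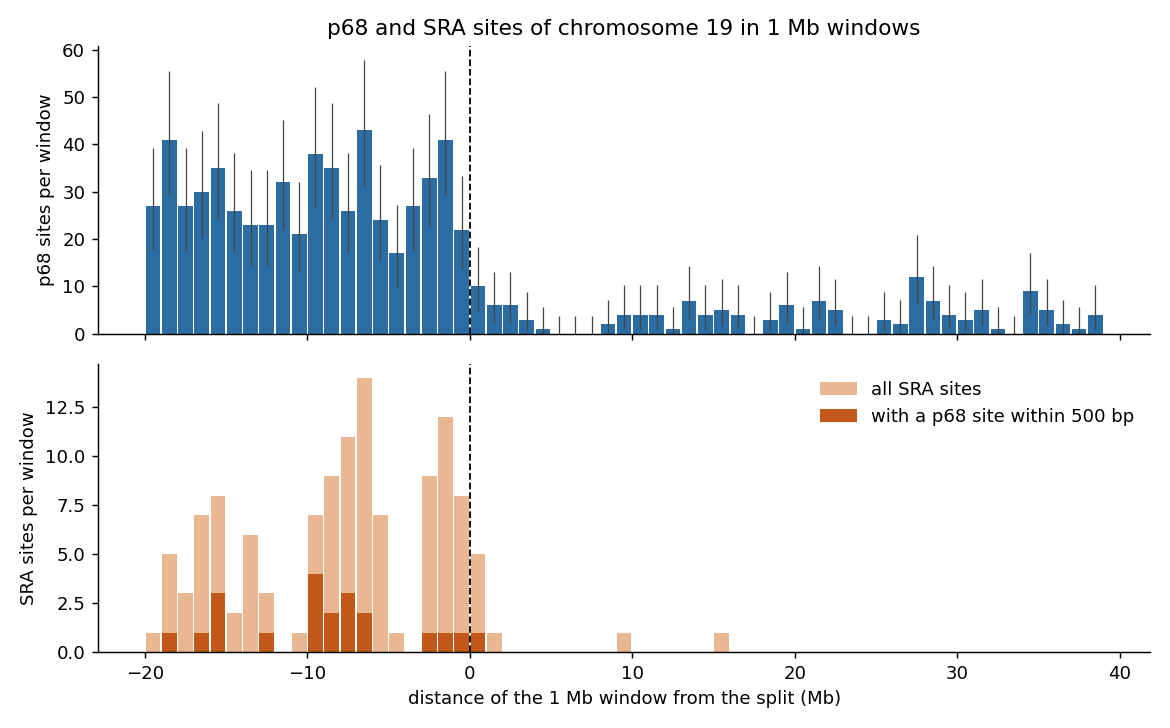
Number of p68 sites (upper) and SRA sites (lower) in 1 Mb windows of chromosome 19, placed by their distance in Mb from the split at 20 Mb (dashed line). Error bars are exact 95% Poisson intervals, dark bars are SRA sites having p68 within 500 bp, and p68 windows run from 17 to 43 before the split and from 0 to 12 after it.

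The 5 windows with most p68 sites before the split were spread along the whole stretch. The window from 13 to 14 Mb held 43 p68 sites (31.1 to 57.9) and also had the most SRA sites, 14. The windows from 1 to 2 Mb and from 18 to 19 Mb held 41 p68 sites each, but 5 and 12 SRA sites. The window from 10 to 11 Mb held 38 p68 and 7 SRA sites, and that from 4 to 5 Mb held 35 and 8. The fewest p68 sites, 17 (9.90 to 27.2), were found from 15 to 16 Mb. In blocks of 5 Mb the p68 density was 32, 25, 33.2 and 28 per Mb from the start of the chromosome to the split, and the lowest and highest of these had intervals that overlapped only slightly, 20.8 to 29.8 and 28.3 to 38.7.

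Around the split the p68 density fell over several windows. From 19 to 20 Mb there were 22 p68 sites, from 20 to 21 Mb 10, and from 21 to 22 Mb 6. The last p68 site before the split ended at 19839842 and the first after it started at 20163905. The 324062 bp between them were empty of p68, and longer empty stretches lay inside the first side, one of 341379 bp starting at 14747622 and one of 341265 bp starting at 15656411. On the other side the longest stretch without p68 ran from 24230904 to 28753177 (4.52 Mb), which spans the centromere, where hg19 has a long gap without sequence. Stretches of 2.34 Mb from 42747016 and of 1.97 Mb from 36742134 followed on the long arm. With the longest empty stretch left out, and counted from the first to the last p68 site of each side, the densities were 30.7 and 4.12 per Mb. The 5 windows with most p68 sites after the split were those starting at 47 Mb (12 sites), 20 Mb (10), 54 Mb (9), 33 Mb (7) and 41 Mb (7).

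The rest of the genome gives a measure of this density. Outside the first 20 Mb of chromosome 19, a median of 3 p68 sites was found in the 2066 windows that held any. Of these windows, 178 (8.62%) reached 17 sites and 83 (4.02%) reached 27, the lowest value and the median of the first 20 Mb. The densest windows lay elsewhere, since 29 windows of the genome held more p68 sites than the 43 of chromosome 19, up to 116. Counted as a run of windows, the dense stretch was the longest. Windows with at least 17 p68 sites followed each other 20 times on chromosome 19 and at most 7 times on another chromosome, on chromosome 1 from 35 to 42 Mb. The number 17 was taken from chromosome 19 itself, and the stretch was chosen by these same p68 counts. Its place among other runs is therefore a description and was not tested. With at least 10 sites per window the longest runs were 21 windows on chromosome 19 and 11 on chromosome 9, and with at least 20 sites they were 15 on chromosome 19, from the start to 15 Mb, and 7 on chromosome 1. Of 166 blocks of 20 Mb in the genome, the first of chromosome 19 was in position 2 by number of p68 sites, behind chromosome 1 from 20 to 40 Mb with 861. That block ranged from 2 to 116 p68 sites per window and the first block of chromosome 12, in position 3 with 448 sites, from 1 to 66. As a whole, chromosome 19 had 12.5 p68 sites per Mb between its first and last site, the highest of the 22 chromosomes with at least 100 p68 sites, followed by chromosome 1 with 10.9 and chromosome 12 with 10.3. This order was not tested.

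SRA sites on the first side were fewer and less even than p68 sites. There were 5.70 per Mb (4.70 to 6.85) before the split and 0.206 per Mb (0.0888 to 0.405) after it, a ratio of 27.7. The first side thus held 5.18 p68 sites for each SRA site and the second 17.6, while on the other chromosomes together there were 1.72. Single blocks of 20 Mb varied around that pooled value. Chromosome 1 held 861 p68 and 336 SRA sites from 20 to 40 Mb, and 343 and 383 from 40 to 60 Mb. The first block of chromosome 7 held 358 and 154, and that of chromosome 12 held 448 and 51. Chromosome 2 from 20 to 40 Mb held 321 and 28. Those of chromosomes 12 and 2 had more p68 sites per SRA site than the first side. Windows before the split had from 0 to 14 SRA sites, with a median of 6.5. The windows from 8 to 9 Mb and from 16 to 17 Mb held none, although they held 32 and 27 p68 sites. The longest stretch without SRA on this side ran from 7894879 to 9906467 (2.01 Mb), and a second of 1.58 Mb started at 15667909. By blocks of 5 Mb, the SRA density was 4.8, 2.4, 9.6 and 6 per Mb, so that the intervals of the block from 5 to 10 Mb (1.24 to 4.19) and of that from 10 to 15 Mb (7.08 to 12.7) did not overlap. The p68 blocks differed much less. The 10 windows with at least 7 SRA sites had a median of 34 p68 sites (22 to 43), and the 10 with fewer had 26.5 (17 to 41), ranges that overlap widely.

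All 8 SRA sites after the split can be given singly. Of these, 5 lay within the first 0.5 Mb past it, starting at 20148102 (3019 bp wide), 20161472 (2476 bp), 20176986 (2502 bp), 20357009 (3041 bp) and 20478325 (1541 bp). A further site started at 21323713 (1326 bp). Beyond it no SRA site was listed for 8.05 Mb, up to a site at 29371187 (1726 bp). The last one of the chromosome started at 35693525 (1794 bp), and the remaining long arm held 0 SRA sites beside 71 p68 sites past 40 Mb. The members next to the split were an SRA site from 19885863 to 19888887 on the first side and the one at 20148102 on the second. A split at 25 Mb would thus have left 2 SRA sites on the second side.

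SRA sites on chromosome 19 were narrow, p68 sites were of middling width among chromosomes, and the median widths changed little along the first side. Before the split the median p68 width was 1124 bp (order-statistic interval 1081 to 1148), with quartiles of 916 and 1414 bp, and the block medians ran from 1077 to 1158 bp. After it the median was 999 bp (942 to 1048). The intervals of the sides did not overlap, but the narrower sites of the second side lay toward its end. From 20 to 25 Mb the median was 1254 bp (980 to 1422, 26 sites), from 25 to 40 Mb 1034 bp (951 to 1145, 44 sites) and past 40 Mb 928 bp (884 to 1002, 71 sites). Over the 20 Mb that follow the split it was 1132 bp, which is not below the first side.

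SRA sites before the split had a median width of 1544 bp (1448 to 1655), with block medians from 1524 to 1626 bp. The 8 sites after it had 2135 bp, with an interval from 1326 to 3041 bp that includes the first value. On the other chromosomes the SRA sites had a median of 2241 bp (2209 to 2279), well above the first side. Wide SRA sites were correspondingly rare, since 29 of 114 (25.4%, Wilson interval 18.3 to 34.1%) exceeded 2 kb before the split, against 58.8% (57.7 to 59.9%) on the other chromosomes. For p68 the shares above 2 kb were 7.11% (5.30 to 9.47%) before the split, 4.26% (1.97 to 8.97%) after it and 15.9% (15.3 to 16.5%) elsewhere. The median p68 width on the other chromosomes together was 1192 bp (1181 to 1203), above the intervals of both sides. By median p68 width, however, chromosome 19 with 1096 bp was in position 9 from the widest of the 22 chromosomes with at least 100 p68 sites, and chromosomes 12 and 1 had the widest p68 sites, with 1504 and 1501 bp. Among the 14 chromosomes with at least 100 SRA sites, chromosome 19 had the lowest median SRA width, 1573 bp, and the others ran from 1741 to 2947 bp.

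**Figure D2:**
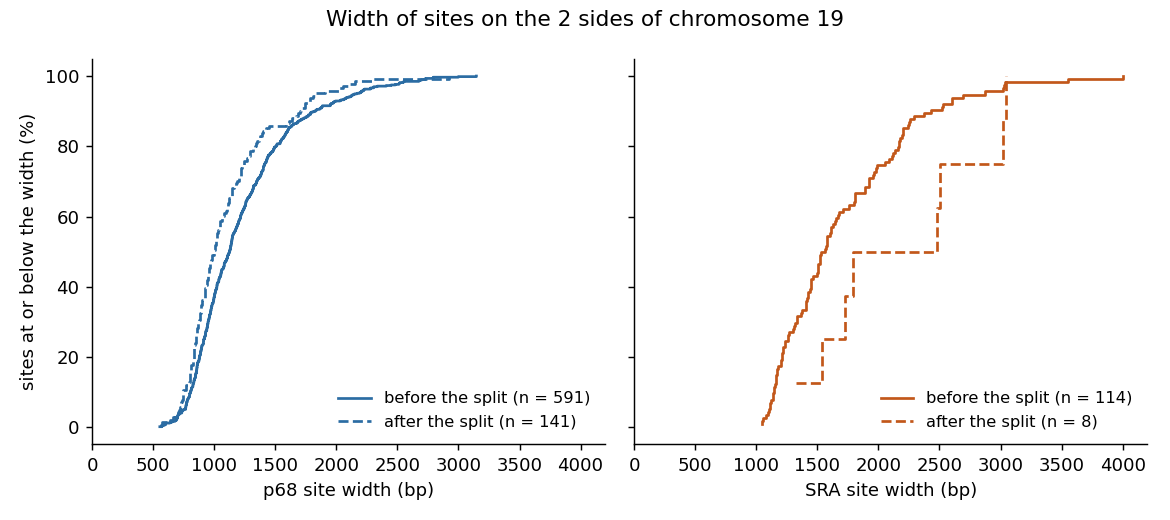
Cumulative share (%) of p68 sites (left) and SRA sites (right) by width in bp, with solid lines for sites before the split and dashed lines for sites after it. The p68 curves lie close together with medians of 1124 and 999 bp, and the dashed SRA curve rests on 8 sites.

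The widest p68 site before the split, of 3147 bp, ran from 13305974 to 13309120. It was followed by sites of 2999 bp (18933896 to 18936894) and of 2794 bp (18294782 to 18297575). None of them had an SRA site within 500 bp, the nearest being 4817 bp from the last of them. After the split the widest p68 sites were those of 2924 bp (35787370 to 35790293), 2290 bp (20193821 to 20196110) and 2153 bp (20163905 to 20166057), so that 2 of these 3 lay in the first 0.5 Mb past the split. The widest SRA sites before the split started at 4574576 (4002 bp), 12949667 (3552 bp) and 17514690 (3037 bp), and none of these had p68 within 500 bp either.

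The share of p68 sites with a near neighbour depends on the number of sites per Mb, by which the split was chosen, so its difference between the sides is no separate result. Before the split, 302 of 591 p68 sites (51.1%, 47.1 to 55.1%) had another p68 site within 10 kb, and the median gap to the nearest one was 9710 bp. After it 19 of 141 did (13.5%, 8.80 to 20.1%), with a median gap of 46721 bp. On the other chromosomes the share was 37.6% (36.8 to 38.4%). At 2 kb, however, the first side with 15.6% (12.9 to 18.7%) was level with the other chromosomes, also 15.6%. At 50 kb nearly all p68 sites of the first side had a neighbour, 96.3% (94.4 to 97.5%), against 56.0% after the split and 69.0% elsewhere. The share at 10 kb was not particular to this stretch, since it was 54.6% on the whole of chromosome 1 and 51.1% on chromosome 12, the chromosomes next in p68 density. In the 4 blocks of 5 Mb before the split the share at 10 kb stayed between 46.4% and 54.4%, with intervals that all overlapped.

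**Figure D3:**
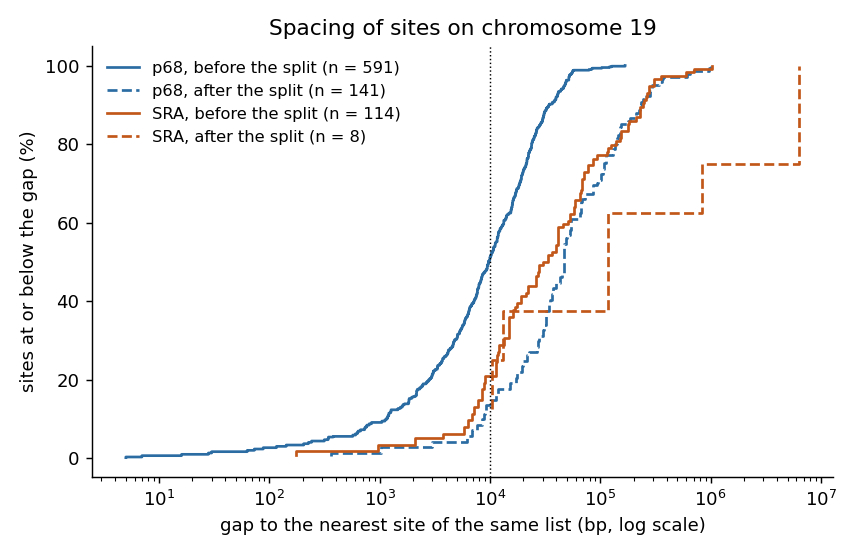
Cumulative share (%) of sites by the gap in bp (log scale) to the nearest site of the same list, for p68 (blue) and SRA (orange) before the split (solid) and after it (dashed). The dotted line marks 10 kb, at which 51.1% of p68 sites before the split and 13.5% of those after it have a neighbour.

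Joining p68 sites within 10 kb gave 408 groups before the split and 131 after it. Most groups were small. On the first side 289 sites (48.9%) stood alone, 74 groups held 2 sites, 32 held 3 and 10 held 4, and there was 1 group each of 5, 6 and 7 sites. On the second side 122 sites (86.5%) stood alone, and the largest group, from 42420115 to 42433783, held 3. Of SRA sites, 24 of 114 (21.1%, 14.6 to 29.4%) had another SRA site within 10 kb before the split and 0 of 8 after it. On the other chromosomes the share was 48.5% (47.4 to 49.6%). For SRA too this share depends on density. With 5.70 SRA sites per Mb against 29.6 for p68 before the split, the shares of the 2 lists are not comparable.

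The largest group of 7 p68 sites ran from 13082990 to 13107252. Its sites were 684 to 2229 bp wide and some were almost joined, since the site ending at 13094481 and that starting at 13094489 were 7 bp apart. In all, 17 of the 590 gaps between successive p68 sites on the first side were at most 500 bp, the smallest of 5 bp, and such sites count singly in the numbers above. The nearest SRA site, from 13075558 to 13076665, was 6324 bp away. The group of 6 p68 sites ran from 13953183 to 13978223 and enclosed an SRA site, from 13957067 to 13958286, whose nearest p68 site was still 2886 bp away. The group of 5, from 8488195 to 8505068, lay in the long stretch without SRA, 593316 bp from the nearest SRA site. Of the 10 groups of 4, the 2 nearest the start of the chromosome started at 797096 and 1555371, and neither overlapped an SRA site. None of these 5 groups therefore held a p68 site with SRA within 500 bp. This does not hold for all groups of 4. Another of them included the p68 site from 12904930 to 12906531, which lay 251 bp from an SRA site.

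With sharing defined as a gap of at most 500 bp between the edges of an SRA and a p68 site, 20 of the 114 SRA sites before the split had p68. This is 17.5% (Wilson interval 11.7 to 25.6%), against 11.5% (10.8 to 12.2%) on the other chromosomes. The 2 intervals overlap, and the difference itself was not tested. After the split it was 1 of 8 SRA sites, 12.5% (2.24 to 47.1%), an interval that includes both other values. Seen from p68 the order was the other way round. Only 22 of 591 p68 sites before the split had SRA within 500 bp, 3.72% (2.47 to 5.57%), below the 6.74% (6.33 to 7.18%) of the other chromosomes, and after it 1 of 141 had (0.709%, 0.125 to 3.91%). The numbers of sites in the lists enter both shares, and p68 outnumbered SRA more on this stretch than on the other chromosomes together. This does not hold against each of them, since chromosome 10, for one, had 275 p68 and 21 SRA sites. Whole chromosome 19, at 17.2%, was in position 2 by the share of SRA sites with p68 among the 14 chromosomes with at least 100 SRA sites, after chromosome 21 with 17.4%, and the lowest was chromosome 17 with 2.71%.

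The share on the first side parted from that of the other chromosomes as the gap allowed grew. Of the SRA sites, 12 overlapped p68 by 1 bp or more (10.5%, 6.12 to 17.5%), against 8.94% (8.32 to 9.59%) elsewhere. A gap of up to 2 kb gave 35 sites (30.7%, 23.0 to 39.7%) against 16.0% (15.2 to 16.8%), and a gap of up to 20 kb gave 94 sites (82.5%, 74.5 to 88.3%) against 47.4% (46.3 to 48.5%). From 1 kb on the intervals no longer overlapped. The density of p68 sites enters these shares directly. Of all bases before the split, 6.50% lay within a p68 site or up to 500 bp from one, and 14.5% up to 2 kb from one. The midpoints of SRA sites fell within these zones in 7 of 114 cases (6.14%, 3.01 to 12.1%) and in 25 of 114 cases (21.9%, 15.3 to 30.4%). At 500 bp the share of bases lay inside the interval of the SRA midpoints, and at 2 kb it lay just below it. Midpoints are a stricter measure than edges, by which 17.5% of SRA sites had p68 within 500 bp. The shares of bases are therefore no base rate for the shares by edge gap. The median gap from an SRA site to the nearest p68 site was 7284 bp (quartiles 1343 and 15084 bp) on the first side.

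**Figure D4:**
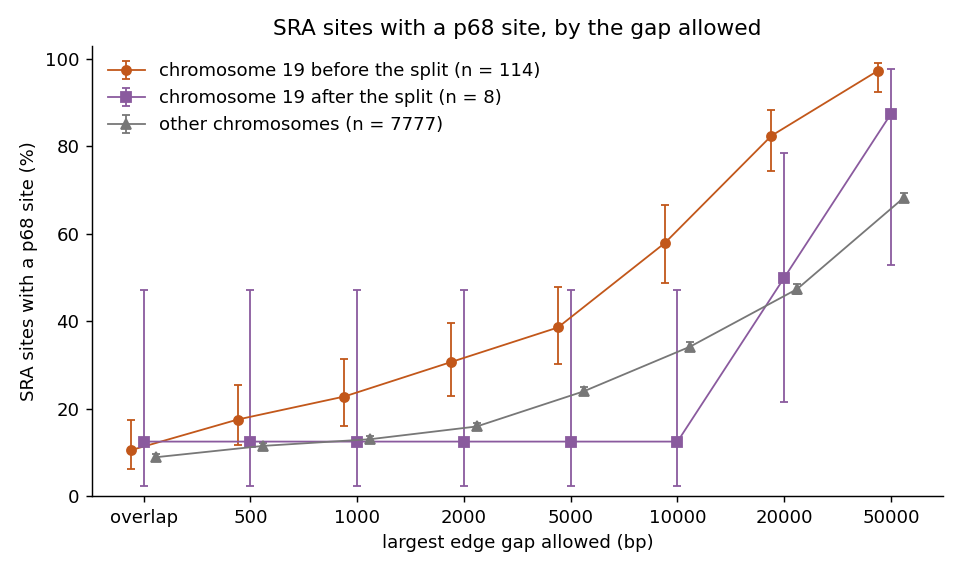
Share (%) of SRA sites that had p68 nearby, by the largest edge gap allowed in bp (categories, not to scale), for chromosome 19 before the split (circles), after it (squares) and for the other chromosomes (triangles), with 95% Wilson intervals. The first side rises from 10.5% for overlap to 82.5% at 20 kb, while the other chromosomes rise from 8.94% to 47.4%.

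The 20 SRA sites with p68 before the split formed 22 pairs with 22 p68 sites, in 11 of the 20 windows of 1 Mb. By blocks of 5 Mb they were 5 of 24, 1 of 12, 11 of 48 and 3 of 30 SRA sites, shares of 8.33% to 22.9% with intervals that all overlapped. In 12 pairs the sites overlapped, by 46 to 926 bp with a median of 454 bp, and in 10 they were 12 to 493 bp apart. No p68 site lay wholly inside an SRA site, and no SRA site inside a p68 site. The overlap took a median of 26.4% of the SRA site and 36.0% of the p68 site. The midpoints of the partners were at least 516 bp apart, with a median of 1237 bp. The p68 midpoint fell inside the SRA site in 3 pairs, to its left in 8 and to its right in 11. In the 10 pairs without overlap it lies outside by definition. Whether p68 lay at the flanks more often than other placements would give was not tested.

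The longest overlap, 926 bp, joined the SRA site from 13227218 to 13229108 with the p68 site from 13228183 to 13229792, which is 49.0% of the former and 57.5% of the latter. The next was 593 bp between the SRA site at 11484175 to 11486545 and the p68 site at 11483618 to 11484767. The window from 10 to 11 Mb held the most shared SRA sites, 4 of 7, all of them overlapping p68. They started at 10627071, 10679621, 10754335 and 10827678 and overlapped p68 by 421, 588, 261 and 344 bp. The site at 10754335 was joined at its right end and that at 10627071 at its left end. Further overlaps among the 10 longest were those of the SRA sites starting at 3880972 (549 bp), 12833319 (533 bp), 7553873 (488 bp) and 4401359 (256 bp). The pair after the split, an SRA site from 20161472 to 20163947 and a p68 site from 20163905 to 20166057, overlapped by 43 bp.

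Some loci held several sites of both lists. From 12833319 to 12849834 lay the first of the 2 groups of 3 SRA sites on the first side, with 3 p68 sites within that stretch. Its first SRA site overlapped p68 by 533 bp, its second had p68 at 423 bp, and its last at 602 bp, just outside the limit for sharing. The other group of 3 SRA sites, from 18432532 to 18440255, had its nearest p68 site 8762 bp away. The SRA site from 4245998 to 4247609 had p68 on both sides, at a gap of 238 bp to the left and with an overlap of 219 bp to the right. The SRA site from 17457594 to 17460115, the widest of the shared ones at 2522 bp, likewise stood between p68 sites at gaps of 391 and 39 bp.

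The density of p68 midpoints was also counted by distance from the SRA sites. Inside the SRA sites of the first side, 194 kb in all, there were 3 p68 midpoints, or 15.4 per Mb (exact Poisson interval 3.18 to 45.1). In the first 500 bp outside there were 8, or 70.7 per Mb (30.5 to 139), and in the next 500 bp 9, or 80.4 per Mb (36.7 to 153). These were the highest densities of any zone, on few midpoints. From 1 to 2 kb the density was 45.1 per Mb (21.6 to 82.9), from 2 to 5 kb 32.9 (20.4 to 50.3) and from 5 to 10 kb 35.6 (24.49 to 49.96). From 10 to 50 kb it was 33.4 (28.6 to 38.7), and farther than 50 kb from any SRA site 26.5 (23.7 to 29.5). The interval inside SRA sites overlaps all others. Those of both 500 bp zones next to SRA sites overlap the intervals of every zone up to 50 kb and lie above only that beyond 50 kb. Chromosome 19 is part of the whole lists, so this arrangement is not independent of that in the genome.

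**Figure D5:**
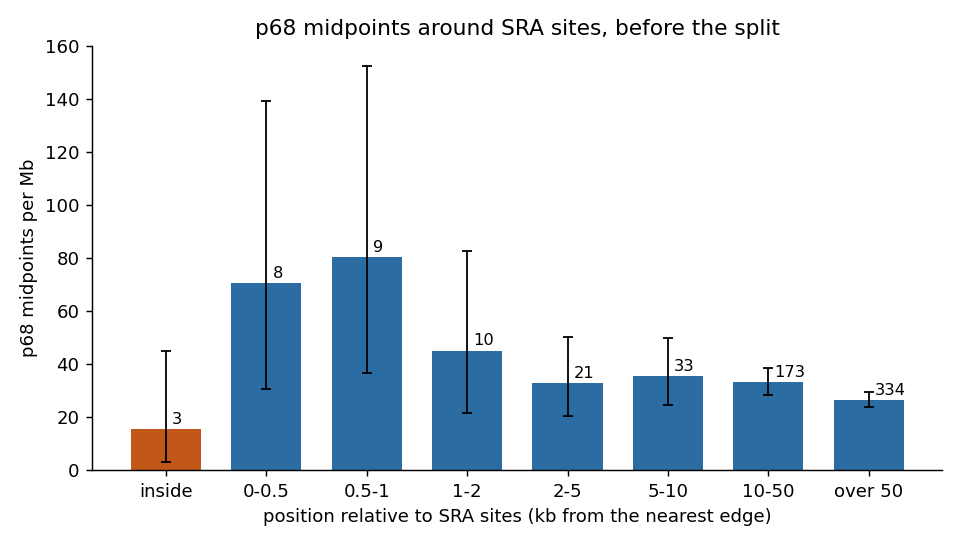
p68 midpoints per Mb inside the SRA sites of the first 20 Mb and in zones outside them, by distance in kb from the nearest SRA edge, with exact 95% Poisson intervals and the number of midpoints beside each bar. The density is highest from 0.5 to 1 kb outside, with 80.4 per Mb from 9 midpoints, and 26.5 per Mb beyond 50 kb.

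The p68 sites with SRA had p68 neighbours more often than the others, on few sites. Of the 22, 17 (77.3%) had another p68 site within 10 kb, against 50.1% of the 569 without SRA. The SRA sites starting at 4245998 and 17457594 each had p68 on both sides. Those p68 sites are neighbours by construction. The same counts can be read from the other side. Of p68 sites with a p68 neighbour, 17 of 302 had SRA within 500 bp (5.63%, 3.54 to 8.83%). Of those that stood alone, 5 of 289 had (1.73%, 0.741 to 3.99%), and the intervals overlap slightly. Widths did not separate the classes. Shared and unshared SRA sites had medians of 1515 bp (1265 to 1891) and 1544 bp (1448 to 1676), and shared and unshared p68 sites 1149 bp (969 to 1381) and 1123 bp (1077 to 1147).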

How the data were processed

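Per the study's methods, the authors mapped 50 bp single-end reads to hg19, discarded duplicates and alignments of mapping quality below 20 using SAMtools, and identified peaks with MACS 1.4.2 at p-value thresholds of 1e-04 (SRA) and 1e-05 (p68). They intersected the replicates with ChIPpeakAnno and subtracted LacZ probe sites from SRA with bedtools. The submitters' processing notes also name CASAVA 1.8.2, and the aligner is not given in the sources used here. The deposited lists hold positions only. A site missing from 1 replicate is absent, thresholds differ between assays, and depth is unknown. Here all chr19 rows were split at midpoint 20000000 and used unfiltered, with starts printed from base 1.

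Shares carry Wilson intervals, densities exact Poisson intervals and median widths order-statistic intervals. The functions were tested on simulated data. The members, split and summaries were chosen with earlier results of these data known. Sites printed singly were the 5 densest windows, the 5 largest p68 groups and the 3 widest sites of each side, all SRA sites after the split, the 10 longest overlaps and the longest empty stretches. The loci with several sites, the window with most shared sites, the second group of 3 SRA sites and the 20 to 40 Mb comparison were chosen after the values were seen. The gene table at hand is of another assembly and was not used. The tools were matplotlib 3.10.9, pandas 2.3.3, scipy 1.17.1, numpy 2.4.6 and Python 3.11.15.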

Additional observations from a re-analysis of the deposited data

How the results depend on the processing

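Of 93 alternative values, 57 stayed within the 95% interval of the value in the report and 36 did not. No paired analysis was possible because each assay is a single list without replicate columns. For that reason replicates were not left out in turn either, and the depth behind a site is unknown. The stretch from 20 to 40 Mb was added as an alternative after the data had been seen.

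p68 density before the split (29.6 per Mb) was 24.7 and 20.8 with splits at 25 and 30 Mb, which take in sparse sequence, and 20.4 with sites within 10 kb counted once. After the split (3.62) it was 6.40 with a split at 15 Mb. SRA density before (5.70) was 4.03 with a split at 30 Mb, and after (0.206) 0.865, 0.0590 and 0.0346 with splits at 15, 25 and 30 Mb. The first side stayed denser in both lists under all of these. The lowest p68 window before the split fell from 17 to 6 per Mb in windows of 500 kb.

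SRA sites with p68 before the split (17.5%) were 10.5% for overlap, 30.7% and 38.6% for gaps of 2 and 5 kb, 0.877% where p68 had to cover 50% of the SRA site, and 0% where midpoints had to lie within 500 bp. After it (12.5%, 1 of 8 sites) they were 0% for coverage, for midpoints and for splits at 25 and 30 Mb, so that the single shared site decides this value. p68 sites with SRA before the split (3.72%) were 2.03%, 6.26%, 9.47%, 0.508% and 0% under the same rules in the same order, with 50% of the p68 site covered, and after it (0.709%) 0% under the 4 alternatives just named. For overlap the percent of SRA sites was higher after the split, and for midpoints both sides were at 0%.

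p68 sites with a p68 neighbour before the split (51.1%) were 15.6% at 2 kb and 96.3% at 50 kb. After it (13.5%) they were 2.84% and 56.0%, 32.4% with a split at 15 Mb and 8.57% from 20 to 40 Mb. Geometric mean p68 widths were 1163 bp before and 1056 bp after, and the median from 20 to 40 Mb was 1132 bp, above the 1124 bp before the split.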
